A study of Mus musculus with 42 samples.

Results

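Goblet cell secreted products are described here through 8 genes named for the purpose: *Muc2*, *Tff3*, *Fcgbp*, *Clca1*, *Zg16*, *Agr2*, *Spink4* and *Reg4*. Members were taken as the rows of the 9 expression tables whose gene symbol was 1 of these names, out of 20462 distinct gene identifiers over the tables. Each of 7 members had 1 row in every table, and *Muc2*, the gel-forming mucin of colonic mucus, was not analysed here.

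The series measured poly(A) RNA by paired-end sequencing in 42 libraries of C57/BL6 mouse colon, to ask what the transcriptional corepressor MTG16 (gene *Cbfa2t3*) does in colonic epithelium at rest, during regeneration and in inflammatory tumors. Mtg16-/- mice (labelled Mtg16-null) were compared with WT littermates, and mice homozygous for the P209T point mutant (Mtg16T/T) with WT littermates of their own, separate colony. All mice came from heterozygous matings and were at least 8 weeks old, and both alleles were carried in every cell, so no difference below was restricted to goblet cells by the design. Crypts were released with EDTA from the proximal colon (nearest the cecum) or distal colon (nearest the anus). At baseline there were 2 Mtg16-/- and 2 WT proximal libraries, 4 Mtg16-/- and 4 WT distal libraries, 2 Mtg16T/T and 2 WT proximal libraries, and 4 Mtg16T/T and 3 WT distal libraries. After injury, when mice had drunk 2% dextran sulfate sodium (DSS, a chemical that ulcerates the colon) for 5 days and water for 4 days, there were 4 Mtg16-/- and 3 WT distal crypt libraries, and 3 Mtg16T/T and 3 WT ones. Whole distal tumors, raised by the carcinogen azoxymethane (AOM, 10 mg/kg) and 3 cycles of 3% DSS, gave 3 Mtg16T/T and 3 WT libraries. The labels do not say that replicates came from separate animals, so P values measure only the spread between these libraries.

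Goblet cells are the mucus-secreting cells of the intestinal epithelium. They pack mucins and other secreted proteins into apical granules, which swell on release into the gel that covers the colon. *Muc2* protein forms the net of this gel, *Fcgbp* and *Clca1* encode abundant structural and protease-like proteins within it, and *Zg16* encodes a lectin-like protein that binds Gram-positive bacteria. *Tff3* encodes a trefoil peptide of mucosal repair, *Agr2* a protein disulfide isomerase of the endoplasmic reticulum needed for mucin folding, *Spink4* a Kazal-type protease inhibitor, and *Reg4* a C-type lectin that also marks deep crypt secretory cells. MTG16 is recruited to DNA by partners that include E proteins, basic helix-loop-helix factors that bind E boxes, and P209T was made to impair its binding to E proteins.

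Promoter sequence is shown for the measured members found in the RefSeq promoter table used here, because of that link between MTG16 and E proteins. Each run covers the 250 bases before the RefSeq start, 5′ to 3′ on the gene's strand (GRCm38.p6), with every E box (CANNTG, which reads the same way on both strands) in capitals. Fcgbp lies at chr7:28070986-28071235, Agr2 at chr12:35992675-35992924 and Reg4 at chr3:98221906-98222155, all on the plus strand.
Fcgbp: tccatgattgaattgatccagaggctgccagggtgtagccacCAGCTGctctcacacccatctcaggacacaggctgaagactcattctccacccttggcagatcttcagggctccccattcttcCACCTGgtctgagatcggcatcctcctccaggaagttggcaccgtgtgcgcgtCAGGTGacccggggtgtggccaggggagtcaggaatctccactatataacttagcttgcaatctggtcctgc
Agr2: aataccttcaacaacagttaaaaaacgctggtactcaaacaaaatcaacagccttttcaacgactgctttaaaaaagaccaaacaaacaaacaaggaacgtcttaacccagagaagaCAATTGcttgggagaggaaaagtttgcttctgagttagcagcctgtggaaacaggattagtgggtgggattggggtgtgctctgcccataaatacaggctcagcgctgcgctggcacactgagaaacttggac
Reg4: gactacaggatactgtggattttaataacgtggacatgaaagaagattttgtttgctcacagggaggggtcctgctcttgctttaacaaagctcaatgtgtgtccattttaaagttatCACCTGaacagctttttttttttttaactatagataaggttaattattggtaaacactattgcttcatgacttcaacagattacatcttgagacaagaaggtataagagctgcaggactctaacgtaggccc
The *Fcgbp* window held 3 E boxes, at 208, 125 and 72 bases before the start, and the *Agr2* and *Reg4* windows held 1 each, at 133 and 132 bases. Of 32851 promoter windows of this length, 66.2% held at least 1 E box and 17.2% held the form CAGGTG or its reverse complement CACCTG, which was present in the *Fcgbp* and *Reg4* windows. A match describes letters in the window and not a bound site. The promoter table used here did not cover *Tff3*, *Clca1*, *Zg16* and *Spink4*. On GRCm38 their genes lie at 17:31125306-31129646 (*Tff3*, minus strand), 3:145003817-145032776 (*Clca1*, minus strand), 7:127050156-127087328 (*Zg16*, minus strand) and 4:40920052-40931395 (*Spink4*, plus strand).

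All values below are normalized counts, the sequencing libraries' estimated reads per gene divided by a size factor set within each table, so levels are compared only within a table. Reads assigned to genes could be recovered for 38 of 42 libraries, all but the mutant proximal ones, and numbered 32231389 to 74661922, and the 7 members together made up 0.739% to 2.54% of the reads in crypt libraries. *Cbfa2t3*, the targeted gene, read 631 to 1057 normalized counts in Mtg16-/- against 1634 to 3221 in WT proximal crypts, and 427 to 595 against 1845 to 2519 after DSS, so reads of the gene remained in the null libraries. In distal baseline crypts its values overlapped, at 424 to 1095 in Mtg16-/- and 1027 to 1809 in WT. The point mutant leaves the gene transcribed, so its *Cbfa2t3* level checks no label. Calls were made by limma at a Benjamini-Hochberg adjusted P under 0.05 over all genes of a table. Some tables share libraries: the WT distal libraries of the T/T colony serve the Mtg16T/T, the segment and the DSS comparisons, and the WT DSS libraries of that colony serve 2 comparisons. Epithelial markers were abundant in every crypt library. In bulk RNA, fewer goblet cells and less RNA per cell cannot be told apart.

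In WT colon, the goblet products split by segment (comparison of 7 distal with 4 proximal WT libraries). The mucus proteins *Fcgbp*, *Clca1* and *Zg16* and the trefoil *Tff3* were higher in distal crypts, and the folding enzyme *Agr2* was lower. With 4 members higher and 1 lower, 5 of 7 passed the test, beside 42.1% of all genes in this comparison, 20.1% higher and 22% lower. *Fcgbp* was between 122258 and 137029 normalized counts in the proximal libraries and between 269154 and 486395, with a median of 315004, in the distal ones. Its groups did not overlap, and it was higher distally by 1.45 on the log2 scale (SE 0.18, adjusted P = 1.9e-05, limma). *Tff3* ranged from 14719 to 21118 proximally and from 22452 to 37682, median 27877, distally. It too was separated, with a difference of 0.74 (SE 0.14, adjusted P = 0.000624, limma). *Zg16* went from 43546 to 73806 in proximal and from 83314 to 162696, median 93587, in distal crypts, a difference of 0.81 (adjusted P = 0.00305, limma) with no overlap. These 3 of 7 members had no overlap between segments, beside 30% of all genes.

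*Clca1* differed by 1.25 (SE 0.23, adjusted P = 0.000615, limma) although 1 proximal library, at 107771, lay above the lowest distal library, at 96112. *Agr2* was 51825 to 96643 proximally and 38205 to 55041 distally, lower by 0.50 on the log2 scale (log2 difference -0.50, adjusted P = 0.0176, limma). *Spink4* (log2 difference -0.40, adjusted P = 0.147) and *Reg4* (0.33, adjusted P = 0.165) did not pass. *Spink4* passed when WT distal replicate 4 of the Mtg16-null colony was left out (-0.51, adjusted P = 0.0398) and *Reg4* when WT distal replicate 2 of the T/T colony was left out (0.43, adjusted P = 0.0441). Library names begin with a number prefix, taken here as a possible batch. Prefix 5582 held only proximal and prefix 5094 only distal WT libraries, so there segment and prefix cannot be told apart. Libraries with prefix 4149 alone (2 proximal, 2 distal) gave 0.88 for *Tff3* and 1.52 for *Fcgbp*, both past the threshold (adjusted P = 0.0261 and 0.0364, limma). *Clca1* (1.46, 0.0717), *Zg16* (1.15, 0.106) and *Agr2* (-0.50, 0.342) did not pass in that fit. Markers of other cells moved with segment too. Absorptive markers summed to 121334 to 201253 distally and 626126 to 833143 proximally (3 of 5 called higher, 2 lower), T cell markers to 275 to 1103 and 1886 to 3052 (4 of 5 lower) and enteroendocrine markers to 12496 to 15394 and 17239 to 20787 (5 of 7 lower, 1 higher), and 3 of 4 tuft and 2 of 3 plasma cell markers were lower. Of 5 tested myeloid markers 3 were higher and 1 lower, and of 7 epithelial markers 3 were higher and 1 lower. Stem markers summed to 2196 to 3071 distally and 1400 to 2016 proximally (1 of 3 higher). Smooth muscle markers summed to 72.3 to 170 and 37.2 to 62.9 (1 of 4 higher) and endothelium to at most 76.4 and at least 79.6 (1 lower). Of 4 tested fibroblast markers 1 was lower, as was 1 of 4 tested ileal and Paneth markers. Their part in the goblet product values was not tested.

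Per kilobase of the longest annotated transcript, *Zg16* was the highest of the 7 in WT distal crypts, at 115234 to 225029 normalized counts per kilobase (median 129442, n = 7), and it overlapped no other member. *Tff3* (median 56545), *Agr2* (49568), *Clca1* (45270), *Fcgbp* (39733) and *Spink4* (39470) followed, and the ranges of neighbours in that order overlapped. *Reg4* was lowest, at 10817 to 21365 (median 16820), below the range of every other member. In proximal crypts *Zg16* (77701), *Agr2* (64618) and *Spink4* (57686) led with overlapping ranges, *Tff3* was at 33893, and *Fcgbp* (16805), *Clca1* (16260) and *Reg4* (13225) overlapped at the bottom. So *Fcgbp* and *Clca1*, encoded by the longest transcripts of the 7 (7928 and 3655 bases against 397 to 1021 for the rest), had high total counts but middle or low levels per length.

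**Figure D1:**
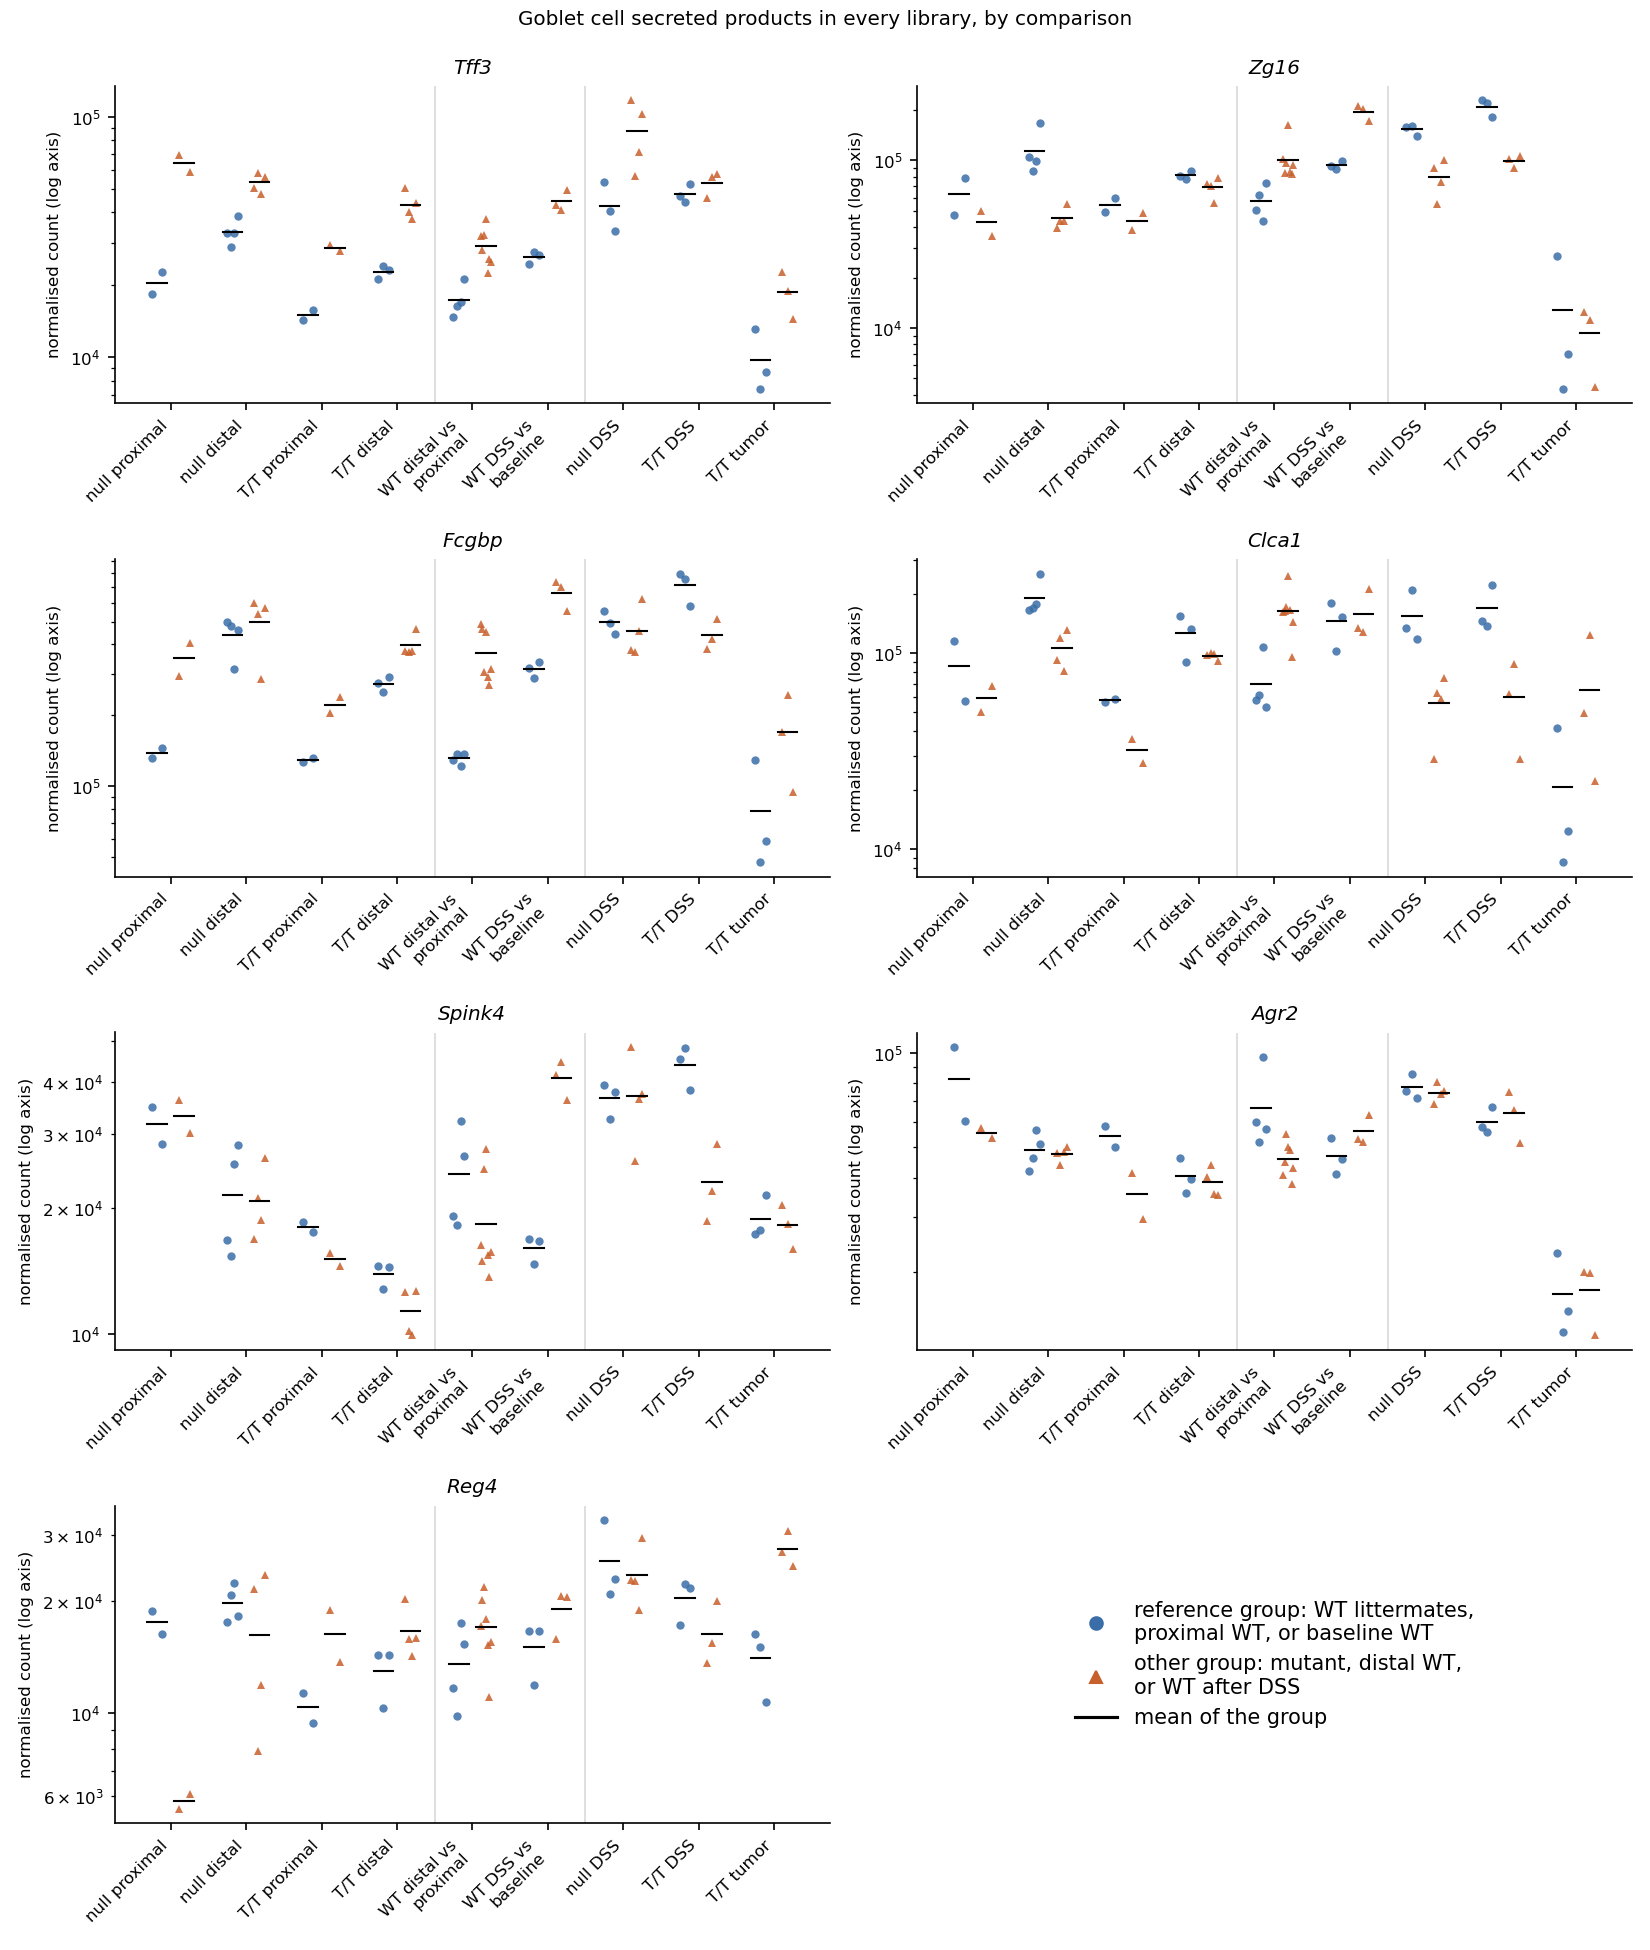
Normalized count of each of the 7 measured goblet products (log axis) in every library of the 9 comparisons, 1 point per library, with the reference group and the mutant, distal or DSS-treated group side by side and a bar at each group mean. *Tff3* of the Mtg16-/- and Mtg16T/T crypts lay above WT without overlap at baseline in both segments, while *Zg16* and *Clca1* had lower group means than WT in those 4 comparisons.

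In Mtg16-/- proximal crypts the members went in opposite directions: the trefoil *Tff3* was higher and the lectin *Reg4* lower than in WT. They were 2 of 7 members called, beside 0.0645% of all genes. *Tff3* was 18343 and 22518 normalized counts in the WT libraries and 69247 and 58837 in the Mtg16-/- ones. Both mutant libraries were above both WT libraries, a 3.14-fold difference (log2 1.65, SE 0.17, 95% interval 1.26 to 2.05, adjusted P = 0.0453, limma). *Reg4* was 18856 and 16340 in WT and 5534 and 6046 in Mtg16-/-. Here both mutant libraries were below both WT libraries, by 3.03-fold (log2 -1.60, SE 0.12, 95% interval -1.90 to -1.30, adjusted P = 0.0113, limma).

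Of the mucus proteins, *Fcgbp* read 131848 and 146108 in WT and 293498 and 403962 in Mtg16-/-. The groups were apart, but the difference did not pass (log2 1.31, SE 0.26, adjusted P = 0.293, limma). *Clca1* was 116224 and 57000 in WT against 50145 and 67954, and *Zg16* was 46962 and 78696 against 50256 and 35574. For both, WT libraries differed from each other as much as from the mutants, and the estimates were -0.48 (adjusted P = 0.911) and -0.52 (adjusted P = 0.88). *Agr2* (-0.52, adjusted P = 0.871) fell short as well, with WT libraries of 104223 and 60747 above mutant libraries of 57409 and 53577. *Spink4* differed by 0.07 (95% interval -0.33 to 0.47). In 4 of 7 members the groups did not overlap, beside 35.6% of all genes, and the 7 had a median of -0.48 beside 0.00 for all genes. Enteroendocrine markers summed to 24884 to 37796 in Mtg16-/- and 18381 to 22348 in WT, epithelial markers to 712506 to 799604 and 610107 to 708464, myeloid markers to 549 to 930 and 417 to 534, and ileal and Paneth markers to at most 499.8 and 619 to 1408. No marker of these classes was called, and their part was not tested. Leaving out Mtg16-/- replicate 1 gave 1.53 for *Tff3* and -1.54 for *Reg4* (adjusted P = 0.203 and 0.0882), and leaving out replicate 2 gave 1.77 and -1.67 (0.145 and 0.0839). In such fits 1 group holds a single library, assumed to vary like the other group, so the lost calls say little about stability. The slope of expression on transcript length (log2 per 10-fold of length, each library against the table's mean) was 0.08 to 0.09 in Mtg16-/- and -0.17 to 0.00 in WT proximal libraries, and with that trend removed *Tff3* was 1.70 and *Reg4* -1.54 (adjusted P = 0.0229 and 0.0164).

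In Mtg16-/- distal crypts no member passed the test, beside 0.239% of all genes, yet *Tff3*, *Zg16* and *Clca1* each separated the genotypes, in different directions. *Tff3* was 32817, 28629, 33021 and 38548 normalized counts in WT and 50636, 58636, 47803 and 56252 in Mtg16-/-. The lowest mutant library lay above the highest WT library, with a log2 difference of 0.68 (SE 0.12, adjusted P = 0.0789, limma). *Zg16* was 104297, 86656, 99397 and 166438 in WT against 39466, 43234, 43217 and 55076. Every mutant library was below every WT library, at 0.41 of the WT level (log2 -1.30, SE 0.21, 95% interval -1.78 to -0.83, adjusted P = 0.0607, limma). *Clca1* was 166966, 169930, 178321 and 255555 in WT and 92308, 119234, 81034 and 131908 in Mtg16-/-. Again the groups did not touch (log2 -0.86, SE 0.21, adjusted P = 0.241, limma).

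Such separation held for 3 of 7 members beside 3.75% of all genes, 2.58% higher and 1.17% lower. *Fcgbp* (0.15), *Agr2* (-0.03) and *Spink4* (-0.02) had adjusted P of 1 and overlapping groups. *Reg4* (-0.41, adjusted P = 1) had 2 Mtg16-/- libraries at 7919 and 11873, below all WT libraries, and 2 at 21553 and 23445, within or above them. The median of the 7 was -0.03, beside -0.01 for all genes. Name prefixes 4149 and 5094 each held 2 libraries of each genotype. Within prefix 4149 the differences were 0.54 for *Tff3*, -1.40 for *Zg16* and -1.05 for *Clca1*, and within prefix 5094 they were 0.83, -1.20 and -0.68. By DESeq2 on the recovered whole reads, which called 1.48% of genes, the adjusted P was 5.8e-06 for *Tff3*, 2.7e-07 for *Zg16* and 0.0032 for *Clca1*. Leaving out Mtg16-/- replicate 2 brought *Tff3* (0.64, adjusted P = 0.0445) and *Zg16* (-1.28, adjusted P = 0.0337) past the threshold in limma. Enteroendocrine markers moved with genotype in these libraries: 4 of 7 were called higher, and their summed level was 32895 to 41750 in Mtg16-/- and 12834 to 15408 in WT. Absorptive markers summed to 148765 to 566623 against 124729 to 205882. The part of other cell types in the goblet product values was not tested.

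In Mtg16T/T proximal crypts *Tff3* was again higher, and it was the 1 member called, beside 0.232% of all genes. It was 14309 and 15785 in WT and 29382 and 27608 in Mtg16T/T, so each mutant library was well above both WT ones (log2 0.92, SE 0.09, 95% interval 0.71 to 1.14, adjusted P = 0.038, limma). The other members lay on either side. *Fcgbp* was 126213 and 131418 against 204837 and 239826 (log2 0.78, adjusted P = 0.0934), and *Reg4* was 11354 and 9428 against 18897 and 13698 (0.64, adjusted P = 0.253). *Clca1* was 56312 and 58611 in WT and 36481 and 27430 in Mtg16T/T (log2 -0.86, adjusted P = 0.107). *Agr2* (58564 and 49852 against 41311 and 29414) differed by -0.63, *Zg16* by -0.32 and *Spink4* by -0.26, with adjusted P of 0.27, 0.452 and 0.332.

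All 7 members separated the 2 groups, 3 higher and 4 lower, beside 45.5% of all genes. The median of the 7 was -0.26 (all genes -0.01). Marker sums of other cells also separated the groups, with enteroendocrine at 24921 to 31043 in Mtg16T/T and 16936 to 20207 in WT, absorptive at 733243 to 800530 and 602297 to 677358, plasma cell at 8257 to 9283 and 11032 to 11500, myeloid at 491 to 496 and 654 to 655, and endothelium at 145 to 165 and 87.4 to 90.5, with no marker of these classes called. Ileal and Paneth markers summed to 369 to 408 and 757 to 3745, and 1 of 5 was called lower. Tuft markers (1184 to 1351 against 1118 to 1139) and stem markers (1412 to 1612 against 1361 to 1379) were also apart, with none called. The part of these cells was not tested. The *Tff3* call was lost without WT replicate 1 (0.85, adjusted P = 0.324), WT replicate 2 (0.99, 0.131) or Mtg16T/T replicate 1 (0.88, 0.0692), fits in which 1 group again holds a single library and the other gives the spread. The length slope was 0.06 to 0.16 in Mtg16T/T and -0.20 to -0.03 in WT, and with that trend removed *Tff3* was 1.19 (adjusted P = 0.0424).

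In Mtg16T/T distal crypts no member was called, beside 0.0369% of all genes, but *Tff3* had the largest log2 difference of the 7 and separated the groups. It was 21086, 23922 and 23071 normalized counts in WT and 50731, 39999, 37516 and 43967 in Mtg16T/T. All 4 mutant libraries were over 1.5 times the highest WT library (log2 0.92, SE 0.11, 95% interval 0.65 to 1.18, adjusted P = 0.112, limma). *Fcgbp* was 273797, 251929 and 290490 in WT and 375065, 370500, 376352 and 465055 in Mtg16T/T. It too was above WT in every mutant library (0.54, SE 0.11, adjusted P = 0.544, limma). *Spink4* was 14536, 12822 and 14450 against 12613, 10157, 9926 and 12686, below WT in all 4 (-0.30, adjusted P = 0.863).

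The other members overlapped: *Clca1* (-0.34), *Zg16* (-0.25), *Agr2* (-0.06) and *Reg4* (0.35). The 3 that did not overlap stood beside 7.7% of all genes, and the median of the 7 was -0.06 (all genes -0.01). Enteroendocrine markers summed to 16025 to 24339 in Mtg16T/T and 12717 to 14409 in WT, with 0 of 7 called, and their part in these values was not tested. DESeq2, which called 0.392% of genes, gave an adjusted P of 1.7e-08 for *Tff3* and 0.0052 for *Fcgbp*. *Tff3* passed in limma when Mtg16T/T replicate 1 was left out (0.83, adjusted P = 0.0373) and with the length trend removed (0.93, adjusted P = 0.0271), where the slopes were -0.61 to 0.25 in Mtg16T/T and 0.02 to 0.11 in WT.

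**Figure D2:**
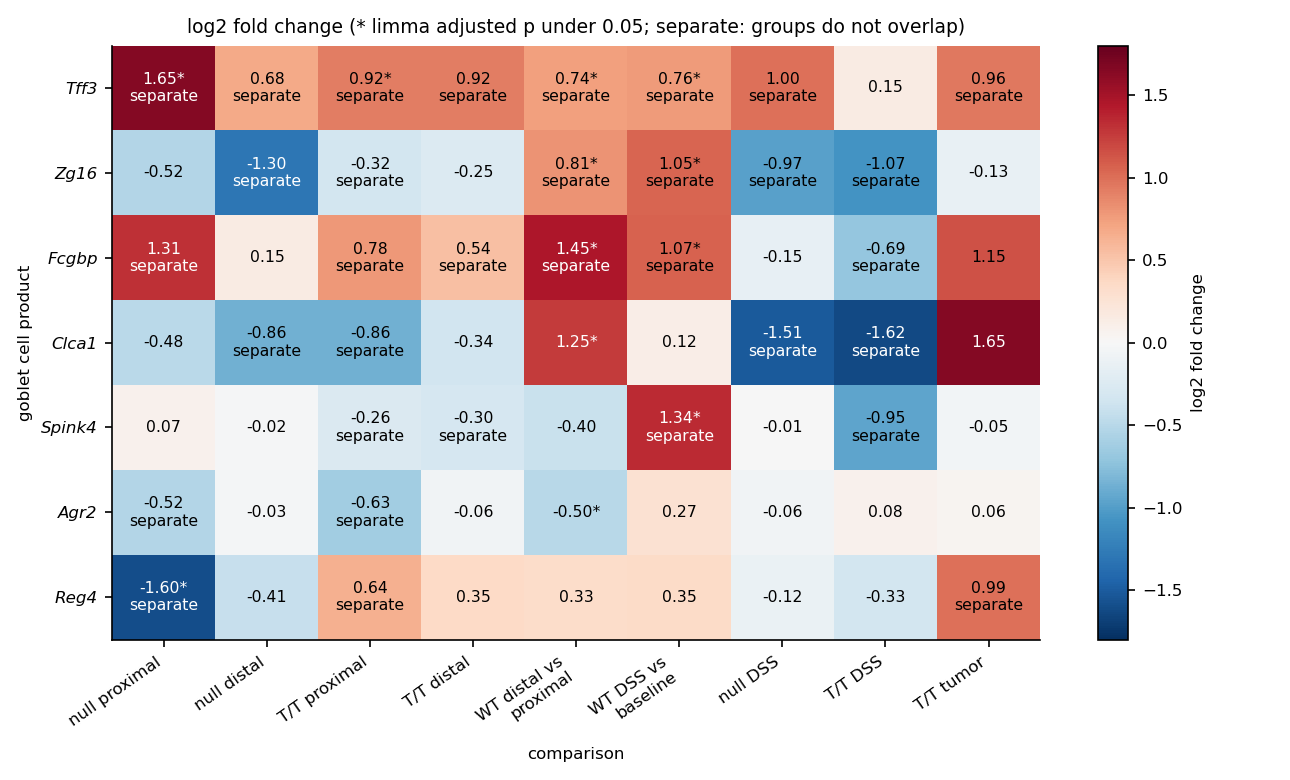
Heat map of the log2 difference of each of the 7 goblet products in the 9 comparisons, with the value printed in each cell. An asterisk marks a limma adjusted P under 0.05, and the word separate marks groups that did not overlap. The *Tff3* estimate was above 0 in all 9, from 0.15 in Mtg16T/T crypts after DSS to 1.65 in Mtg16-/- proximal crypts, while *Zg16* was below 0 in each of the 7 comparisons of a mutant with WT (-0.13 in tumors, where its sign turned with a library left out).

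Whether the genotype effects themselves differed was tested as a difference between tables, over all genes. No member passed, beside 0% of all genes in 6 of these 7 tests. The difference of Mtg16-/- proximal minus distal was 0.97 for *Tff3*, 1.16 for *Fcgbp* and -1.19 for *Reg4* (adjusted P = 0.999 each). Mtg16-/- distal minus Mtg16T/T distal was -1.05 for *Zg16* (adjusted P = 0.971). Mtg16-/- minus Mtg16T/T after DSS was 0.85 for *Tff3* and 0.93 for *Spink4* (adjusted P = 0.81 each). *Reg4* had opposite signs in the proximal segments of the 2 alleles, -1.60 in Mtg16-/- and 0.64 in Mtg16T/T. The difference of -2.24 (95% interval -2.74 to -1.74) had an adjusted P of 0.0945 and was tested after its values were seen. In that test 0.00734% of genes passed, and no member did.

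After DSS injury and repair, 4 members were higher in WT distal crypts, *Spink4*, *Fcgbp*, *Zg16* and *Tff3*, and no member was called lower. These 4 of 7 stood beside 14% of all genes called higher and 35.6% called either way. *Spink4* was 16888, 14713 and 16696 normalized counts at baseline and 41652, 44697 and 36294 after DSS. All DSS libraries were more than 2 times the highest baseline library (log2 1.34, SE 0.12, adjusted P = 0.00693, limma). *Fcgbp* was 318102, 289088 and 335634 at baseline and 733906, 699243 and 553145 after DSS (1.07, SE 0.15, adjusted P = 0.00873, limma). *Zg16* was 93232, 89485 and 99716 against 209928, 204175 and 171014 (1.05, SE 0.12, adjusted P = 0.00803, limma). *Tff3* was 24498, 27450 and 26656 against 42915, 40856 and 49764 (0.76, SE 0.12, adjusted P = 0.00969, limma). In each of these the groups did not overlap, beside 55.3% of all genes.

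*Clca1* (0.12, adjusted P = 0.744), *Agr2* (0.27, adjusted P = 0.166) and *Reg4* (0.35, adjusted P = 0.163) did not pass. The 7 members together went from between 1.23% and 1.53% of the reads at baseline to between 2.33% and 2.54% after DSS, and the median log2 difference of the 7 was 0.76, beside 0.00 for all genes. The baseline libraries had name prefix 5094 and the DSS libraries prefix 5740, so prefix and treatment cannot be told apart. Epithelial markers summed to 831327 to 1184720 after DSS and 695187 to 778091 at baseline (3 of 7 called higher). Enteroendocrine markers (4 of 7 called higher) summed to 16904 to 22854 and 14775 to 16534, and 2 of 6 myeloid and 2 of the 4 tested fibroblast markers were called higher. Plasma cell markers summed to 13328 to 17358 and 10137 to 10851, with 1 of 3 called higher, and 1 of 3 tested ileal and Paneth markers was called higher. The 1 absorptive marker called was lower. Their part in these values was not tested. Without WT baseline replicate 2 none of the 4 passed, with differences of 1.28 for *Spink4* and 1.01 for *Zg16* (adjusted P = 0.0534 each), 1.01 for *Fcgbp* and 0.80 for *Tff3* (0.0535 each). Without WT DSS replicate 1 *Tff3* was 0.78 (adjusted P = 0.0527). Length slopes did not overlap, at 0.49 to 0.57 at baseline and -1.06 to 0.23 after DSS. With that trend removed *Fcgbp*, whose transcript is the longest of the 7, differed by 1.91 in place of 1.07. Over all 13 alternative fits *Fcgbp* ran from 0.99 to 1.91 and *Tff3* from 0.57 to 0.82. *Zg16* ran from 0.90 to 1.14 and *Spink4* from 1.13 to 1.43, so other members also had fits below the reported difference.

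After DSS, Mtg16-/- crypts lay above WT crypts in *Tff3* and below them in *Clca1* and *Zg16*, without overlap, as these 3 members had done in other libraries at baseline in the distal colon. No member passed without a replicate block, beside 0.629% of all genes. The labels give replicate numbers but do not say that same-numbered libraries were paired. A block on replicate number was used because deviations of same-numbered libraries correlated (0.554, 0.46 and 0.317). With it 3 of 7 passed, beside 8.78% of all genes in that fit, so these calls rest on an inferred pairing. *Tff3* was 53583, 40564 and 33556 in WT and 116963, 56708, 71321 and 102508 in Mtg16-/-. Every mutant library exceeded every WT library, with wide spread among the mutants (1.00, SE 0.28, adjusted P = 0.144, and 0.90 with adjusted P = 0.0087 with the replicate block, limma). *Clca1* was 134396, 210339 and 118835 against 28675, 62442, 58092 and 74377. The highest mutant library was below the lowest WT library (-1.51, SE 0.34, adjusted P = 0.0814, and -1.67 with adjusted P = 0.0022 with the replicate block, limma). *Zg16* was 158699, 161057 and 139881 against 90077, 54610, 74262 and 100503, also apart (-0.97, SE 0.23, adjusted P = 0.0951, and -1.10 with adjusted P = 0.0056 with the replicate block, limma).

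*Fcgbp* (-0.15), *Agr2* (-0.06), *Spink4* (-0.01) and *Reg4* (-0.12) had adjusted P of 0.847 to 0.988. Separation in 3 of 7 members stood beside 11.4% of all genes. The median of the 7 was -0.12 (all genes 0.00). Markers of other cells moved with genotype, and 1 of 7 epithelial markers was called higher. Summed myeloid markers were 6029 to 19296 in Mtg16-/- and 905 to 3499 in WT (1 of 6 called higher), enteroendocrine markers 27858 to 29861 and 15235 to 20994 (0 of 7 called), tuft markers 426 to 503 and 581 to 854 (2 of 4 called lower) and stem markers 3144 to 3703 and 3966 to 5180 (0 of 3 called), and 1 of 3 tested ileal and Paneth markers was called lower. Their part in these values was not tested. With the length trend removed, *Zg16* and *Clca1* passed (adjusted P = 0.012 and 0.045) and *Tff3* was 0.64 (adjusted P = 0.12). DESeq2, which called 5.02% of genes, put all 3 past the threshold (adjusted P = 0.0092 for *Tff3*, 0.00052 for *Clca1* and 0.0019 for *Zg16*).

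Mtg16T/T crypts after DSS had lower estimates than WT crypts after DSS for 5 of 7 members, with *Tff3* and *Agr2* slightly above 0. No gene at all was called by limma or edgeR (0% of genes), 8.77% of genes had an unadjusted P under 0.05, and DESeq2 called 2.43%. *Zg16* was 228197, 220149 and 180565 in WT and 101627, 90684 and 105977 in Mtg16T/T. The mutant libraries were all below the WT range (-1.07, SE 0.16, adjusted P = 0.154, limma, and 3.6e-05 by DESeq2). *Spink4* was 45277, 48194 and 38321 against 18652, 22012 and 28508, likewise apart (-0.95, SE 0.20, adjusted P = 0.232, limma, and 0.022 by DESeq2). *Clca1* was 146711, 138756 and 224666 against 61898, 88144 and 28711 (-1.62, SE 0.42, adjusted P = 0.308, limma), and *Fcgbp* was 797776, 753951 and 584037 against 382636, 422962 and 514317 (-0.69, SE 0.19, adjusted P = 0.34, limma).

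*Tff3* was 46649, 44052 and 52543 in WT and 45810, 55921 and 57695 in Mtg16T/T, which overlapped (0.15, 95% interval -0.23 to 0.53, adjusted P = 0.795). *Agr2* (0.08) and *Reg4* (-0.33) also overlapped. The 4 members that lay below WT without overlap stood beside 8.02% of all genes. The median of the 7 was -0.69 (all genes 0.03), and their summed share of reads was 1.49% to 1.57% in Mtg16T/T and 2.33% to 2.54% in WT. Myeloid markers summed to 1921 to 2361 in Mtg16T/T and 586 to 1366 in WT, with 0 of 6 called, and ileal and Paneth markers to 646 to 1022 and 1050 to 1116, with 0 of 3 called, and their part in these values was not tested. Length slopes overlapped, at -0.64 to 1.05 and -0.77 to 0.51. Compared with the Mtg16T/T effect at baseline, the effect after DSS was lower by 1.28 for *Clca1* (difference -1.28), with differences of -1.23 for *Fcgbp*, -0.82 for *Zg16* and -0.77 for *Tff3*. None passed the test over all genes (adjusted P = 0.52 to 0.62).

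In tumors, where the libraries also held connective tissue (fibroblast markers summed to 126998 to 178800 normalized counts), *Tff3* and *Reg4* were the members that separated Mtg16T/T from WT. No gene was called by limma or edgeR (0%), 2.47% of genes had an unadjusted P under 0.05, and DESeq2 called 0.154%. *Reg4* was 16355, 15083 and 10693 in WT and 27001, 30911 and 24818 in Mtg16T/T, higher in every mutant tumor (0.99, SE 0.17, adjusted P = 0.641, limma, and 0.00012 by DESeq2). *Tff3* was 13080, 7380 and 8689 against 22552, 18806 and 14434, also higher in every mutant tumor (0.96, SE 0.24, adjusted P = 0.998, limma). Higher values without overlap in 2 of 7 members stood beside 2.98% of all genes, and separation either way was seen in 5.52%.

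The mucus proteins varied widely between tumors of the same genotype. *Clca1* was 41336, 8538 and 12390 in WT and 49245, 123904 and 22141 in Mtg16T/T, with a 95% interval of the difference of -0.03 to 3.33. *Fcgbp* ranged from 47650 to 129724 and from 94674 to 244977 (1.15, adjusted P = 0.998). *Zg16* (-0.13), *Spink4* (-0.05) and *Agr2* (0.06) had intervals that included 0. Absorptive markers summed to 17613 to 27751 in Mtg16T/T and 31339 to 38106 in WT tumors, with 0 of 5 called, and their part was not tested. The 7 members took 0.237% to 0.552% of reads in WT tumors and 0.398% to 0.964% in Mtg16T/T tumors.

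Because *Tff3* went against several other products, its level was expressed relative to the other 6 measured members of the same library (log2 of *Tff3* minus the mean log2 of the 6). The mutant minus WT difference of this quantity was 1.94 in Mtg16-/- proximal, 1.10 in Mtg16-/- distal, 1.03 in Mtg16T/T proximal and 0.93 in Mtg16T/T distal crypts, and 1.47 and 0.91 in Mtg16-/- and Mtg16T/T crypts after DSS. In all 6 of these comparisons the genotypes did not overlap. In tumors it was 0.35 with overlap. Segment and injury in WT moved it little, by 0.24 between distal and proximal and by 0.06 after DSS, both with overlap. Many other genes also lay higher by this measure, since a fall of the 6 members raises all of them: 53.4%, 15.4%, 34.5% and 2.08% of all genes in the baseline tables in the order above, and 37.8% and 58.9% after DSS. In the Mtg16T/T DSS comparison the relative difference of *Tff3* thus went with lower *Zg16*, *Clca1*, *Spink4* and *Fcgbp*, and in Mtg16T/T distal crypts with higher *Tff3* itself.

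**Figure D3:**
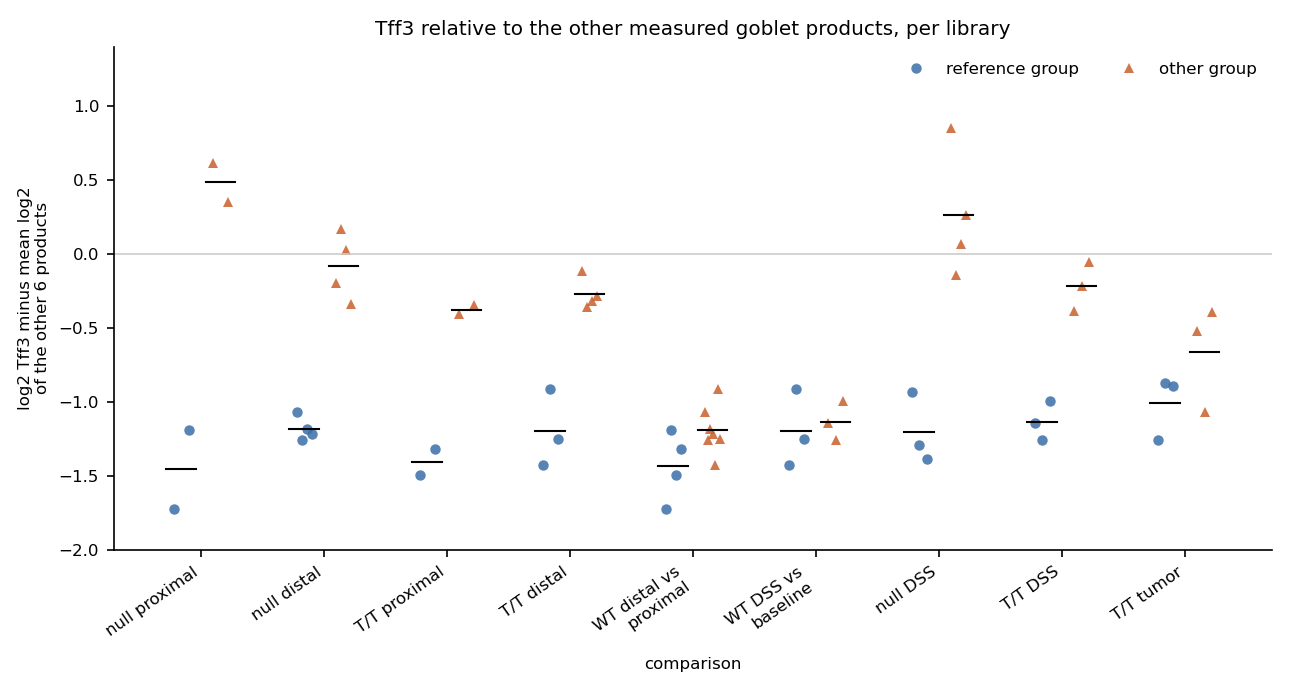
Log2 level of *Tff3* minus the mean log2 level of the other 6 measured goblet products in every library, by comparison, 1 point per library. Bars mark group means, and the reference group is WT (proximal WT or baseline WT in the 2 comparisons within WT). Mutant libraries lay above their WT libraries without overlap in 6 of 7 comparisons of a mutant with WT, and tumors overlapped.

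The other members were each set against their own 6 companions, as a description with no test. Over the 7 comparisons of a mutant with WT, the difference ran from -1.22 (Mtg16-/- distal) to -0.42 (Mtg16T/T proximal) for *Zg16*, below 0 in all 7. *Clca1* ran from -1.46 (Mtg16-/- after DSS) to -0.54 in crypts and was 1.16 in tumors. *Fcgbp* ran from -0.07 (Mtg16T/T after DSS) to 1.54 (Mtg16-/- proximal). *Agr2* ran from -0.78 (Mtg16T/T proximal) to 0.83 (Mtg16T/T after DSS), *Spink4* from -0.83 (tumors) to 0.29 (Mtg16-/- after DSS) and *Reg4* from -1.85 (Mtg16-/- proximal) to 0.70 (Mtg16T/T proximal), so these members had no common direction. These quantities share their parts, so a higher *Tff3* lowers the others.

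The log2 ratio of *Tff3* to *Zg16*, chosen after the values were seen, was between -2.32 and -1.36 in every WT crypt library of both segments and with or without DSS. It was 0.46 to 0.73 in Mtg16-/- proximal, 0.03 to 0.44 in Mtg16-/- distal and -0.06 to 0.38 in Mtg16-/- crypts after DSS. In Mtg16T/T it was -0.82 to -0.38 in proximal crypts, -0.83 to -0.51 in distal crypts and -1.15 to -0.70 after DSS. No mutant crypt library reached the WT range. Of all genes, 31.9%, 84.5% and 68.6% were higher relative to *Zg16* without overlap in the Mtg16-/- proximal, distal and DSS tables, and 47.1%, 24.3% and 70.6% in the Mtg16T/T ones, so many genes stood apart by this ratio. In WT the ratio differed by -0.07 between segments and -0.29 after DSS, both with overlap, and in tumors by 1.09 with overlap.

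Within groups, *Tff3* and *Zg16* varied together. The deviations of log2 level from the group mean, over 42 libraries in 14 groups, had r = 0.73 for this pair, which ranked *Zg16* number 2 of 12815 genes for likeness to *Tff3* (number 1 at r = 0.76 with the trend of level on transcript length removed). The 5 nearest genes to *Tff3* by this measure were *Slc39a5* (0.75), *Zg16*, *Fuom* (0.73), *Acp5* (0.71) and *Hsd11b2* (0.70), and the median r of all genes with *Tff3* was -0.03. With the length trend removed, *Zg16* was followed by *Ces2a* (0.70), *Nr5a2* (0.67), *Dhrs11* (0.67) and *Ces2b* (0.67). That removal moved *Clca1* from rank 3107 to 37 and *Spink4* from 184 to 2504. Across the 21 pairs of members r ran from -0.07 (*Clca1* and *Spink4*) to 0.77 (*Clca1* and *Agr2*), with a median of 0.27. Libraries share size factors and tables, so these correlations describe the libraries, and no test was made.

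**Figure D4:**
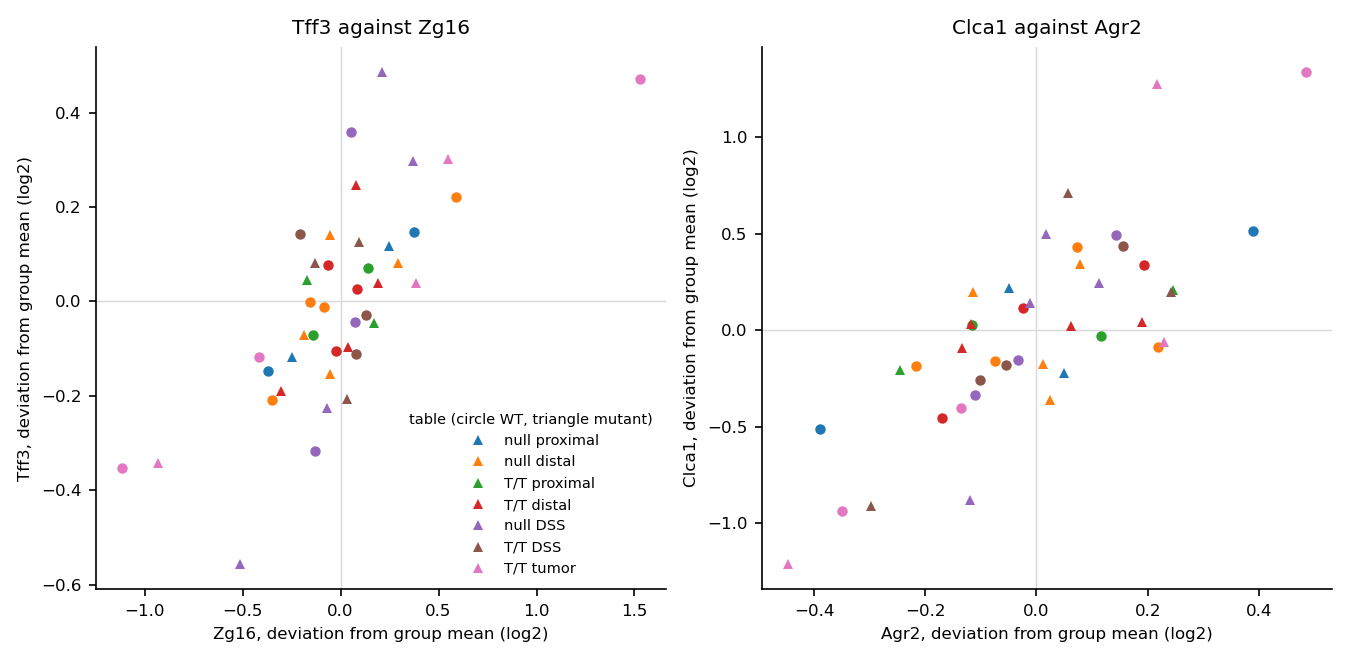
Deviation of each library's log2 level from its group mean for *Tff3* against *Zg16* (left) and *Clca1* against *Agr2* (right), 42 libraries in 14 groups, coloured by table, with circles for WT and triangles for mutant libraries. Both pairs slope upward, with r = 0.73 and r = 0.77.

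Genes of the wider goblet program were read from lists of other secreted products, mucin folding and glycosylation, granule and secretion genes, and transcription factors. In Mtg16-/- proximal crypts the 1 listed gene called was *Sval1*, higher by 4.02 (adjusted P = 0.01, limma). All 13 mucin folding and glycosylation genes had estimates below 0 there (median -0.36, all genes 0.00), and none passed. In Mtg16T/T proximal crypts *Ang4*, an antimicrobial ribonuclease, was higher by 1.73 (adjusted P = 0.0436, limma) and the transporter gene *Slc12a8* lower (-0.69, adjusted P = 0.0498, limma), and 12 of 13 mucin folding genes were below 0 with a median of -0.38. In the other mutant comparisons that list was mixed: 9 of 13 were below 0 in Mtg16-/- distal, 8 in Mtg16T/T distal, 10 in Mtg16-/- DSS, 6 in Mtg16T/T DSS and 4 in tumors. Granule and secretion genes were below 0 in 9 of 10 in Mtg16-/- distal, Mtg16-/- DSS and Mtg16T/T DSS (medians -0.18, -0.36 and -0.42). They were below 0 in 5 of 10 in both proximal comparisons, in 6 in Mtg16T/T distal and in 1 in tumors. The median of all genes lay between -0.01 and 0.03 in each comparison of a mutant with WT. In Mtg16-/- crypts after DSS *Ang4* was higher by 5.17 (adjusted P = 0.00113, limma), and *Atoh1*, the transcription factor that commits progenitors to the secretory lineage, was lower (-1.16, adjusted P = 0.0165, limma). In Mtg16-/- distal, Mtg16T/T distal, Mtg16T/T DSS and tumor libraries limma called no gene of the 4 lists. There DESeq2 called *Ang4* higher (3.23, adjusted P = 0.0257) and *Galnt7* (-0.33, adjusted P = 0.0335) and *Atoh1* (-0.97, adjusted P = 0.000341) lower in Mtg16-/- distal crypts, and *Itln1*, *Klk1*, *Scin* and *Atoh1* lower in Mtg16T/T crypts after DSS (-1.69, -1.22, -1.10 and -1.12).

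In WT colon the lists divided by segment. Of 10 granule and secretion genes 7 were higher and 1 lower in distal crypts, whereas of 13 mucin folding and glycosylation genes 1 was higher and 7 lower, as *Agr2* was. Of 7 other secreted products tested, 2 were higher, among them *Sval1* (5.54), and 3 lower, among them *Retnlb* (-4.14), which encodes a bactericidal protein, and *Itln1* (-2.59), an intestinal lectin. After DSS in WT, 7 of 13 mucin folding genes were higher and 3 lower, 6 of 10 granule genes were higher and 1 lower, and 3 of 5 transcription factors were higher, among them *Spdef* (1.60), which drives goblet cell maturation. These counts stood beside the shares of all genes called given above for the same 2 comparisons.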

How the data were processed

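The authors trimmed reads with fastp 0.20.0, quantified them with Salmon 1.3.0 against mm10 transcripts and normalized with DESeq2 1.26.0 in R 3.6.3, per the labels and their methods. The deposited tables hold normalized counts (signal: estimated counts divided by a size factor per table). In the 7 tables where steps allowed it, 100% of values came out whole within 0.1 once multiplied back. The 2 small proximal tables were tested only as deposited. Groups came from the sample labels.

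Each of 9 comparisons was fitted with limma 3.58.1 in R 4.3.3 (trend on) on log2(normalized count + 1) over genes with a mean of at least 10, with Benjamini-Hochberg adjustment, two-sided, at 0.05. Fold changes are on that scale, which understates changes of low genes. Alternatives refitted the recovered reads in edgeR 4.0.16 or in DESeq2 1.42.0, or used other scalings, filters, or left libraries out. Differences between tables used combined standard errors. Scripts were tested on simulated data. Same-numbered libraries were paired where deviations from group means correlated above 0.1 in each of at least 3 pairs, which held for Mtg16-/- DSS (0.554, 0.46 and 0.317). Members of the gene lists, and the members described, were chosen with earlier results of these data known. The named genes were the 7 measured members, listed genes that passed the test, and the 5 genes nearest to *Tff3* with and without the length trend. Depth is the number of reads assigned to genes, and intervals cover the spread between libraries.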

Additional observations from a re-analysis of the deposited data

Results flagged for a closer look

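Among 42 sets of 4 to 10 libraries examined for a library far from the rest, by Dixon's criterion, 6 held one, where chance gives about 1 in 20. *Fcgbp* in Mtg16-/- distal crypts was 285284 in replicate 3 and 536904 to 596602 in the others, and in their WT controls it was 314887 in replicate 3 and 460520 to 498019 in the others. *Clca1* was 255555 in WT distal replicate 4 of the same table and 166966 to 178321 in the others. *Zg16* was 162696 in that library, in the comparison of WT segments, and 83314 to 101863 in the other distal WT libraries. In Mtg16T/T distal crypts replicate 4 had *Fcgbp* at 465055, against 370500 to 376352, and *Clca1* at 90983, against 98501 to 99940. Without Mtg16-/- or WT replicate 3 the *Fcgbp* difference remained uncalled.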

How the results depend on the processing

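Calls on single members were few and the groups small, and the number of members called moved with the setting. In Mtg16-/- proximal crypts it was 1 with no filter (2 as reported), and 0 to 2 with a library left out. In Mtg16-/- distal crypts it was 2 when scaled to the library total and 3 by DESeq2 (0 as reported), and 0 to 2 with a library left out. In Mtg16T/T proximal crypts it was 0 with no filter and 0 to 1 with a library left out (1 as reported). In Mtg16T/T distal crypts it was 2 by DESeq2 and 1 with the length trend removed (0 as reported), and 0 to 1 with a library left out. For WT segments it was 2 within name prefix 4149 and 3 within the Mtg16-null colony (5 as reported). For WT after DSS it was 0 to 4 with a library left out. In Mtg16-/- crypts after DSS it was 3 by DESeq2 and 2 with the length trend removed, in Mtg16T/T crypts after DSS 2 by DESeq2 and in tumors 1 by DESeq2 (0 as reported in each). The causes were not tested.

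The replicate block moved the members called to 3 in Mtg16-/- crypts after DSS, where pairing was inferred from correlated deviations. Elsewhere the deviations of same-numbered libraries had correlations from -0.77 to 0.37. There the block called 5 members in Mtg16T/T proximal crypts and 6 for WT segments, and changed no other member call. The genes it called were 32 in Mtg16-/- proximal (9 without it), 1 in Mtg16-/- distal (33), 151 in Mtg16T/T proximal (32), 0 in Mtg16T/T distal (5), 1271 in Mtg16-/- DSS (91), 2679 in WT DSS (4833) and 5632 for WT segments (5824).

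Genes called also moved by over 1.5 times in other fits. DESeq2 called 202 in Mtg16-/- distal, 53 in Mtg16T/T distal, 727 in Mtg16-/- DSS, 331 in Mtg16T/T DSS (0 as reported) and 24 in tumors (0). Name prefix as a covariate gave 8 in Mtg16-/- distal and 3189 for WT segments (5824). Within prefix 4149 they were 2 and 2014, within prefix 5094 there were 0 in Mtg16-/- distal, and within the Mtg16-null colony 3540 for segments. No filter gave 2 in Mtg16T/T proximal and 1 in tumors. With the length trend removed there were 222 in Mtg16-/- DSS, 14 in Mtg16T/T DSS and 1 in tumors. With a library left out the ranges were 6 to 22 in Mtg16-/- proximal, 2 to 143 in Mtg16-/- distal, 0 to 27 in Mtg16T/T proximal, 0 to 8 in Mtg16T/T distal, 1 to 9086 in WT DSS, 28 to 106 in Mtg16-/- DSS, 0 to 3 in Mtg16T/T DSS and 0 to 1 in tumors.

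Changes of sign were limited to uncalled members. *Spink4* in Mtg16-/- distal was 0.0048 scaled to the library total, 0.24 within prefix 5094 and 0.0515 with the length trend removed. *Agr2* in Mtg16-/- distal was 0.0599 within prefix 5094. *Spink4* in Mtg16T/T proximal was 0.0781 with the length trend removed, and *Spink4* in Mtg16-/- DSS was 0.019 by edgeR and 0.0223 by DESeq2. With a library left out, the ranges that crossed 0 were, in Mtg16-/- proximal, *Clca1* -0.99 to 0.0344 and *Spink4* -0.0767 to 0.22. In Mtg16-/- distal they were *Fcgbp* -0.0031 to 0.40, *Agr2* -0.11 to 0.0381 and *Spink4* -0.16 to 0.13. In Mtg16T/T distal *Agr2* ran from -0.15 to 0.0331, and in WT DSS *Clca1* from -0.11 to 0.29. In Mtg16-/- DSS they were *Agr2* -0.11 to 0.0152, *Spink4* -0.15 to 0.15 and *Reg4* -0.25 to 0.0823, and in Mtg16T/T DSS *Agr2* -0.0436 to 0.23. In tumors they were *Zg16* -0.69 to 0.63, *Agr2* -0.12 to 0.30 and *Spink4* -0.13 to 0.0473. The planned ratio of *Tff3* to *Muc2* was not run, because *Muc2* was not analysed here.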
